A study of Homo sapiens with 12 samples.

Results

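Clustered replication-dependent histone genes code for the linker histone H1 and the core histones H2A, H2B, H3 and H4, the proteins around which DNA is wound in the nucleus. They were taken as every symbol of the deposited tables that begins with HIST1H, HIST2H, HIST3H or HIST4H. That rule gave 73 of 23284 symbols, and all 73 stand in the table of the first experiment. They comprise 6 H1, 18 H2A, 20 H2B, 14 H3 and 15 H4 genes. The table of the knockout experiment lists 56 of them among 12421 symbols, with 4 H1, 13 H2A, 15 H2B, 11 H3 and 13 H4 genes. The annotation places 56 of the 73 on chromosome 6, 16 on chromosome 1 and 1, HIST4H4, on chromosome 12, and it calls 3 of them (HIST1H2APS1, HIST2H2BA and HIST2H2BC) pseudogenes.

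Cells make most of their core histones while they copy DNA, and these clustered genes are the main source. Their mRNAs differ from nearly all others in that they end in a short stem-loop, which the stem-loop binding protein SLBP holds, and not in a poly(A) tail. Many of the genes can also give a longer, polyadenylated transcript from a signal downstream of the stem-loop. The libraries described here were primed on poly(A), so each value covers what was captured that way. Tailless histone mRNA was not targeted, and whether any of it was copied was not tested.

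The cells are HEK293, a human embryonic kidney line, 24 h after transfection with 5 ug of plasmid. RNA came from the ribosomal fraction of a sucrose gradient run with cycloheximide, which holds ribosomes on mRNA, and was copied by Smart-seq2, a poly(T)-primed method. The first experiment has STING cells, given a plasmid for the DNA-sensing adaptor STING (TMEM173), and Vector cells, given the empty plasmid. The knockout experiment has 4 groups, which are STING and Vector in PERK KO cells and STING and Vector in WT cells. PERK (EIF2AK3) is an endoplasmic reticulum kinase that slows translation under stress. Each of the 6 groups has 2 libraries. The labels do not say whether the PERK KO cells are 1 clone or whether replicates were separate cultures, so the spread between libraries may be technical. Total RNA was not analysed here, so the amount of an mRNA and its loading with ribosomes cannot be told apart.

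The stem-loop and the start of the gene are the sequence features that set these genes apart, and both are shown for members on which the results below turn. The stem-loop was found in an annotated transcript of 24 members, in GENCODE v29 on GRCh38, in 3 spellings. The spelling of HIST1H2AC, the H2A gene with the lowest adjusted p, was found in 17 members and is the same in HIST3H2A, which moved the other way. The spelling of the H4 genes was found in 5 members, and the one shown for HIST1H2AG in 2. Capitals mark the loop.
HIST1H2AC stem-loop (chr6:26124669-26124684, plus strand): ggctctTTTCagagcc
HIST3H2A stem-loop (chr1:228457369-228457384, minus strand): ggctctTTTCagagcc
HIST1H2AG stem-loop (chr6:27133515-27133530, plus strand): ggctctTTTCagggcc
HIST1H4H stem-loop (chr6:26285131-26285146, minus strand): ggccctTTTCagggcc

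RefSeq promoter windows (GRCh38.p14, 250 bases before the start and 50 after it) were matched for 65 of the 73 members. Of these windows, 43 (66.2%) hold the TATA-type letters TATAAA on either strand, against 11.5% of all 35116 promoters. CCAAT stands in 55 (84.6%), against 34.6% of all promoters, and the octamer ATTTGCAT in 25 (38.5%), against 1.77%. The motifs divide the classes. CCAAT was found in every matched window of H1, H2A, H2B and H3 (6, 16, 18 and 12 windows) and in 3 of 13 windows of H4. The octamer was found in 11 of 16 H2A and 14 of 18 H2B windows and in 0 of 6 H1, 0 of 12 H3 and 0 of 13 H4 windows. A match is only a match of letters. The windows below belong to HIST1H2AC and HIST1H2BF, which fell with STING, and to HIST3H2A, which rose, with the 3 motifs in capitals on either strand.
HIST1H2AC promoter (chr6:26123922-26124221, plus strand): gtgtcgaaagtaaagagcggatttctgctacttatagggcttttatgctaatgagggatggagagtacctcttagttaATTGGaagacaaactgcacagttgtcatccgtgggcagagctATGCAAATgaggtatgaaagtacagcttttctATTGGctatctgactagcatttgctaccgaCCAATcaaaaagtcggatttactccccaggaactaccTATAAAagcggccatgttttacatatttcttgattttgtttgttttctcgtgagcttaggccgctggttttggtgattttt
HIST1H2BF promoter (chr6:26199266-26199565, plus strand): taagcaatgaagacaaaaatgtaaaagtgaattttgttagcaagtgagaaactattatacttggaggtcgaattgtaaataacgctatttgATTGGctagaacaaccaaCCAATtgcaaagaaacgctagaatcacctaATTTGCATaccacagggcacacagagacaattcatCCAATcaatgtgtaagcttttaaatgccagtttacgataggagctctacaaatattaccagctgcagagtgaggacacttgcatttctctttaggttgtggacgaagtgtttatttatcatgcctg
HIST3H2A promoter (chr1:228457824-228458123, minus strand): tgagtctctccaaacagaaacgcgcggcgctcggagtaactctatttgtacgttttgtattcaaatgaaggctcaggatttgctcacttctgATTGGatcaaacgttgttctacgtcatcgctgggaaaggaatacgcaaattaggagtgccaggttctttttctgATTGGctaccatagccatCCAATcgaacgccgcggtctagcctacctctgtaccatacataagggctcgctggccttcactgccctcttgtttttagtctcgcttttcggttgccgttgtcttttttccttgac
HIST1H2AC holds all 3 motifs, HIST1H2BF holds CCAAT and the octamer, and HIST3H2A holds CCAAT alone. HIST1H4C was not matched.

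Levels are FPKM, read pairs corrected for how long a transcript is and for library size, as the authors deposited them. Both tables were tested separately, and levels in them are not on a shared scale. STING reached 65157 and 69253 FPKM in STING libraries of the first experiment, against 14.9 and 13.8 in Vector libraries. In the knockout experiment it reached 10512 and 7338 FPKM in PERK KO STING libraries and 41812 and 40660.1 in WT STING libraries, against 23.1 to 43.8 in the 4 Vector libraries. The STING mRNA level thus differed between the genotypes, and its part in any difference between them was not tested. EIF2AK3 stood at 0.291 to 0.465 FPKM in the first experiment and at the lowest listed value of 1 in 7 of 8 libraries of the knockout experiment, so it cannot check the PERK KO label. Of 8 markers of HEK293 cells, KRT8, KRT18, VIM, NEFL and INA were above 1 FPKM in each library of both experiments, while PAX2 and LHX1 were at or near the lowest value throughout and NEFM was at it in the first experiment and in WT cells. The markers summed to 295 to 496 FPKM in PERK KO libraries, against 168 to 235 FPKM in WT libraries, and the part of that gap in any genotype difference was not tested. No fibroblast marker was above 1 FPKM in the first experiment, and PTPRC, HBB and CD3E, which define blood cells, were listed at 0.

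HIST1H4C, an H4 gene, stood far above all other members. It had 26707 and 22407 FPKM in STING libraries, against 42225 and 29514 FPKM in Vector libraries, which ranked it between 3 and 9 among all symbols of a library. That was 86.8% to 90.1% of the summed FPKM of all members in the 4 libraries, and 30.2 to 52.8 times the level of the next member, HIST1H1E. HIST1H4C was 0.53 lower on the log2 scale with STING (SE 0.19), its libraries did not overlap between groups, and it missed the threshold (limma adjusted p = 0.142). As a share of all FPKM in the library, its groups did overlap, at 1.24% and 1.06% with STING and 1.51% and 1.18% with Vector. Without Vector library 2 its adjusted p was 0.0229, and without the other libraries in turn it reached up to 0.496.

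The linker histone genes with a level, HIST1H1E, HIST1H1C and HIST1H1D, did not pass the test. HIST1H1E had 647 and 686 FPKM in STING libraries, against 799 and 976 FPKM in Vector libraries. HIST1H1C had 535 and 549.9 FPKM with STING and 559 and 564 FPKM with Vector. The values of each gene were lower in both STING libraries, by 0.41 for HIST1H1E, 0.34 for HIST1H1D and 0.05 for HIST1H1C on the log2 scale, and 0 of 3 passed (lowest limma adjusted p = 0.0705, HIST1H1E). HIST1H1A and HIST1H1T were listed at 0 in each library, and HIST1H1B reached 0.538 FPKM in 1 Vector library alone.

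**Figure D1:**
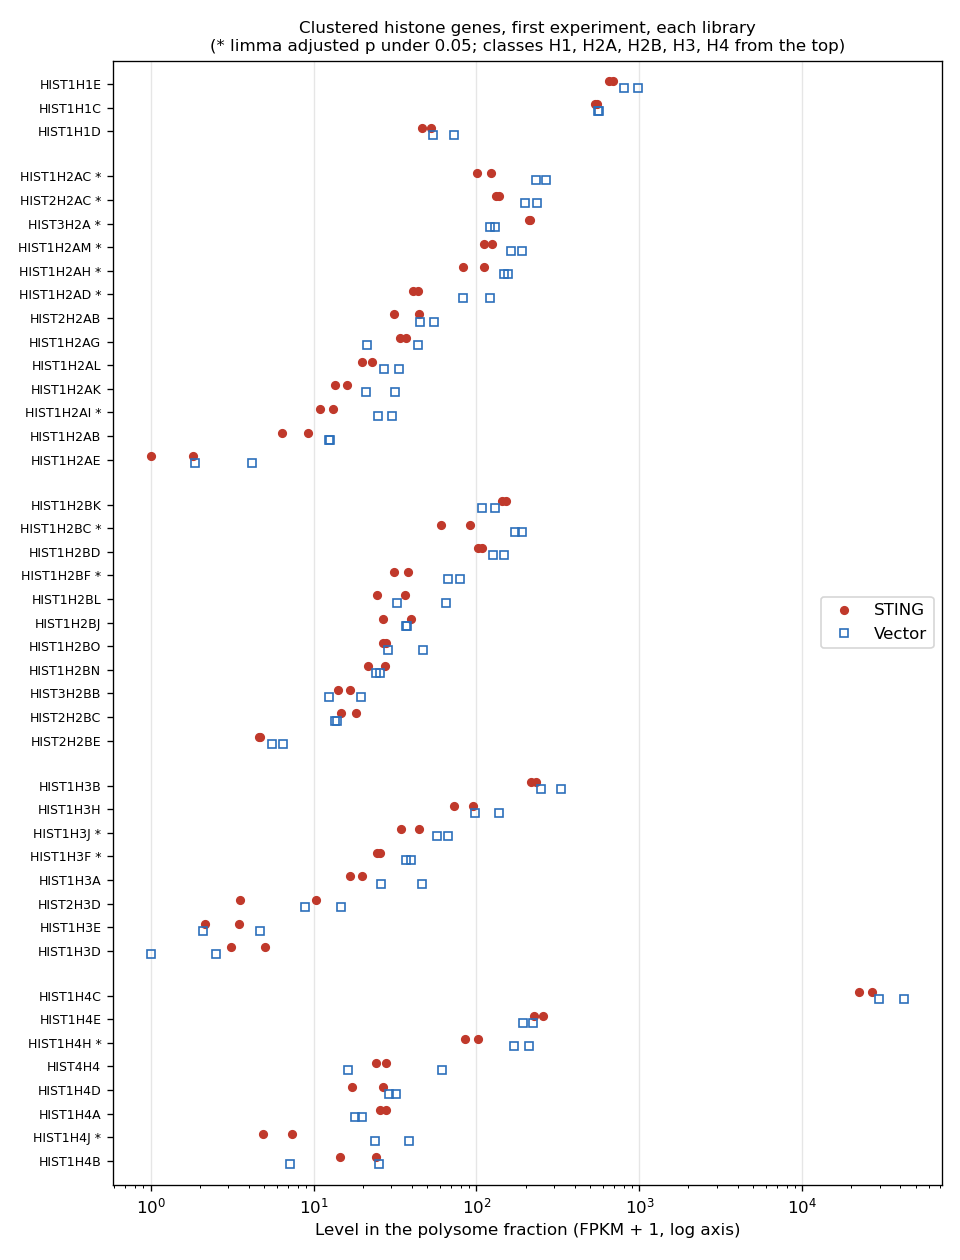
Level of each of the 43 tested members in the first experiment (horizontal axis, FPKM + 1, log scale), with 2 STING libraries (filled) and 2 Vector libraries (open squares) per gene, in class order. HIST1H4C stands alone at the right, and each of the 12 starred members that fell has both STING points left of both Vector points, while the other starred member, HIST3H2A, has them on the right.

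Of the 73 members, 27 were listed at 0 in all 4 libraries of the first experiment, and 43 had a mean of at least 1 FPKM and were tested (3 H1, 13 H2A, 11 H2B, 8 H3 and 8 H4). The test was limma on log2(FPKM + 1) over all 9464 genes with such a mean, at a Benjamini-Hochberg adjusted p of 0.05, and the added 1 makes changes of low genes look smaller. With STING, 12 of the 43 fell and 1 rose, that is 27.9% and 2.33%, where 9.29% of all genes fell and 2.51% rose. Calls were more frequent among higher genes. At a mean of at least 5 FPKM, 12 of 39 members fell and 1 rose, against 821 and 182 of 5296 genes, so the gap is narrower there. Libraries did not overlap, with STING below Vector, for 28 members (65.1%) against 32.8% of all genes, and with STING above for 6 (14.0%) against 24.2%. The median member changed by -0.48 on the log2 scale, and the median of all genes by -0.05. By class the medians were -0.34 for H1, -0.70 for H2A, -0.36 for H2B, -0.54 for H3 and -0.39 for H4. Members with a low mean that passed the filter only through 1 group are among the 43, so these counts describe the members and are not a test of the family.

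The 13 calls rest on all 4 libraries together and on limma's trended, robust variance. With limma's plain variance model 0 of the 13 passed, and the 8 members with calls under each scaling had limma adjusted p values from 0.0905 to 0.103. Without STING library 1, and likewise without STING library 2, 0 members passed in limma. Without Vector library 1 the counts were 10 lower and 1 higher, and without Vector library 2 they were 11 lower and 2 higher. The sum of all FPKM values in a library was 2159860 and 2110170 in STING libraries, against 2801940 and 2508730 in Vector libraries, and where all libraries were brought to 1 sum, 7 members passed as lower and 4 as higher (HIST3H2A, HIST1H2BK, HIST1H4E and HIST1H4A). Quantile normalization also gave 7 lower and 4 higher. These are counts of members alone, and the share of all genes called under each setting is not given here. Each of HIST1H2AC, HIST1H2AD, HIST1H2AI, HIST1H2BC, HIST1H2BF, HIST1H4H and HIST1H4J passed as lower, and HIST3H2A as higher, under each of the 3 other scalings (median-of-ratios, quantile and equal sums).

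H2A genes, which code for the partner of H2B in the nucleosome, held 6 of the 12 members that fell. HIST1H2AC had 123 and 99.2 FPKM in STING libraries, against 267 and 229.6 FPKM in Vector libraries. It fell by 1.16 on the log2 scale (SE 0.14; limma adjusted p = 0.00348), and both STING libraries lay below both Vector libraries. HIST1H2AD had 42.9 and 40.03 FPKM with STING and 120.6 and 81.1 FPKM with Vector (log2 change -1.23, SE 0.20; limma adjusted p = 0.00801). HIST1H2AI had 10.02 and 12.2 FPKM with STING and 29.1 and 23.8 FPKM with Vector (log2 change -1.18, SE 0.20; limma adjusted p = 0.00933). The reads of HIST1H2AI are uncertain, since it shares an exact stretch of 332 bases with HIST1H2AJ, longer than a read of 150 bases, and HIST1H2AJ was listed at 0 throughout. HIST2H2AC had 135.5 and 130.3 FPKM with STING, against 236 and 198 FPKM with Vector, and fell by 0.70. HIST1H2AH, with 110.5 and 81.1 FPKM against 156 and 146 FPKM, fell by 0.67. HIST1H2AM, with 109.5 and 123 FPKM against 162 and 190.6 FPKM, fell by 0.59, and it overlaps HIST1H3J in the annotation, so their reads are hard to separate. These 3 had limma adjusted p values from 0.0124 to 0.0346 and did not pass with equal sums.

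HIST3H2A, an H2A gene of the small cluster on chromosome 1, went the other way. It had 213 and 210.1 FPKM in STING libraries, against 119 and 129 FPKM in Vector libraries, and rose by 0.77 on the log2 scale (SE 0.11; limma adjusted p = 0.00552). Both STING libraries lay above both Vector libraries. Of the 13 tested H2A members, 11 had both STING libraries below both Vector libraries, and HIST1H2AG was the 1 member whose groups overlapped.

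Among H2B genes, 2 of 11 fell. HIST1H2BC had 90.8 and 59.3 FPKM in STING libraries, against 189 and 173 FPKM in Vector libraries (log2 change -1.29, SE 0.20; limma adjusted p = 0.0107). HIST1H2BF had 30.04 and 37.2 FPKM with STING and 65.8 and 78.1 FPKM with Vector (log2 change -1.08, SE 0.17; limma adjusted p = 0.00728). HIST1H2BK, the H2B member with the highest mean, ran against them, with 152 and 141 FPKM in STING libraries, against 128 and 107 FPKM in Vector libraries, and did not pass (log2 change 0.32; limma adjusted p = 0.164). HIST1H2BD, with 107 and 102 FPKM against 146 and 125 FPKM, did not pass either (limma adjusted p = 0.104). Of the 11 tested H2B members, 5 had both STING libraries below Vector, 2 had both above, and the groups of 4 overlapped.

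Among H3 genes, 2 of 8 fell. HIST1H3F had 23.7 and 24.7 FPKM in STING libraries, against 36.02 and 38.5 FPKM in Vector libraries (log2 change -0.60; limma adjusted p = 0.0449). HIST1H3J had 33.4 and 43.6 FPKM with STING and 65.7 and 56.4 FPKM with Vector (log2 change -0.66), and its limma adjusted p of 0.04996 lies just inside the threshold. The H3 genes with the highest means, HIST1H3B and HIST1H3H, had 214 and 231 FPKM against 330 and 249 FPKM, and 94.4 and 72.04 FPKM against 136 and 97.3 FPKM. Both were lower in both STING libraries and did not pass (limma adjusted p = 0.151 and 0.182). HIST1H3A, with 18.9 and 15.8 FPKM against 45.3 and 24.99 FPKM, did not pass (log2 change -0.92; limma adjusted p = 0.0868). HIST1H3D had the largest H3 change, 1.33 higher, at 2.14 and 4.04 FPKM with STING and 1.91e-06 and 1.52 FPKM with Vector, and did not pass (limma adjusted p = 0.143).

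Among H4 genes, 2 of 8 fell. HIST1H4H had 100.5 and 83.4 FPKM in STING libraries, against 208 and 169 FPKM in Vector libraries (log2 change -1.02, SE 0.15; limma adjusted p = 0.00597). HIST1H4J had 3.87 and 6.35 FPKM with STING and 37.5 and 22.7 FPKM with Vector, the largest change of a member, -2.34 (SE 0.30; limma adjusted p = 0.00518). It shares all 312 bases of a stretch with HIST1H4K, which was listed at 0, so its reads are uncertain too. HIST1H4E, with 223 and 254 FPKM against 223 and 191 FPKM, did not pass (limma adjusted p = 0.346). HIST1H4A, named after its values were seen, had 24.5 and 26.9 FPKM in STING libraries, against 17.0 and 18.7 FPKM in Vector libraries, and did not pass as deposited (log2 change 0.50; limma adjusted p = 0.101).

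Summed over its members, each class was lower in both STING libraries than in both Vector libraries of the first experiment. The H2A sum was 851 and 816 FPKM with STING and 1230.4 and 1154 FPKM with Vector. The H2B sum was 536 and 475 FPKM against 737 and 631 FPKM, and the H3 sum was 397 and 397 FPKM against 622 and 486 FPKM. The H1 sum was 1228 and 1288 FPKM against 1430 and 1594 FPKM. H4 genes other than HIST1H4C summed to 409 and 442 FPKM, against 598 and 453 FPKM. As a share of all FPKM in the library, the members other than HIST1H4C made up 0.158% and 0.162% with STING and 0.165% and 0.172% with Vector. The gap between the groups is thus much smaller as a share than as a sum. A summed level follows its highest members, and no test was made on it. In bulk samples such as these, fewer cells that make histone mRNA and less of it per cell cannot be told apart.

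**Figure D2:**
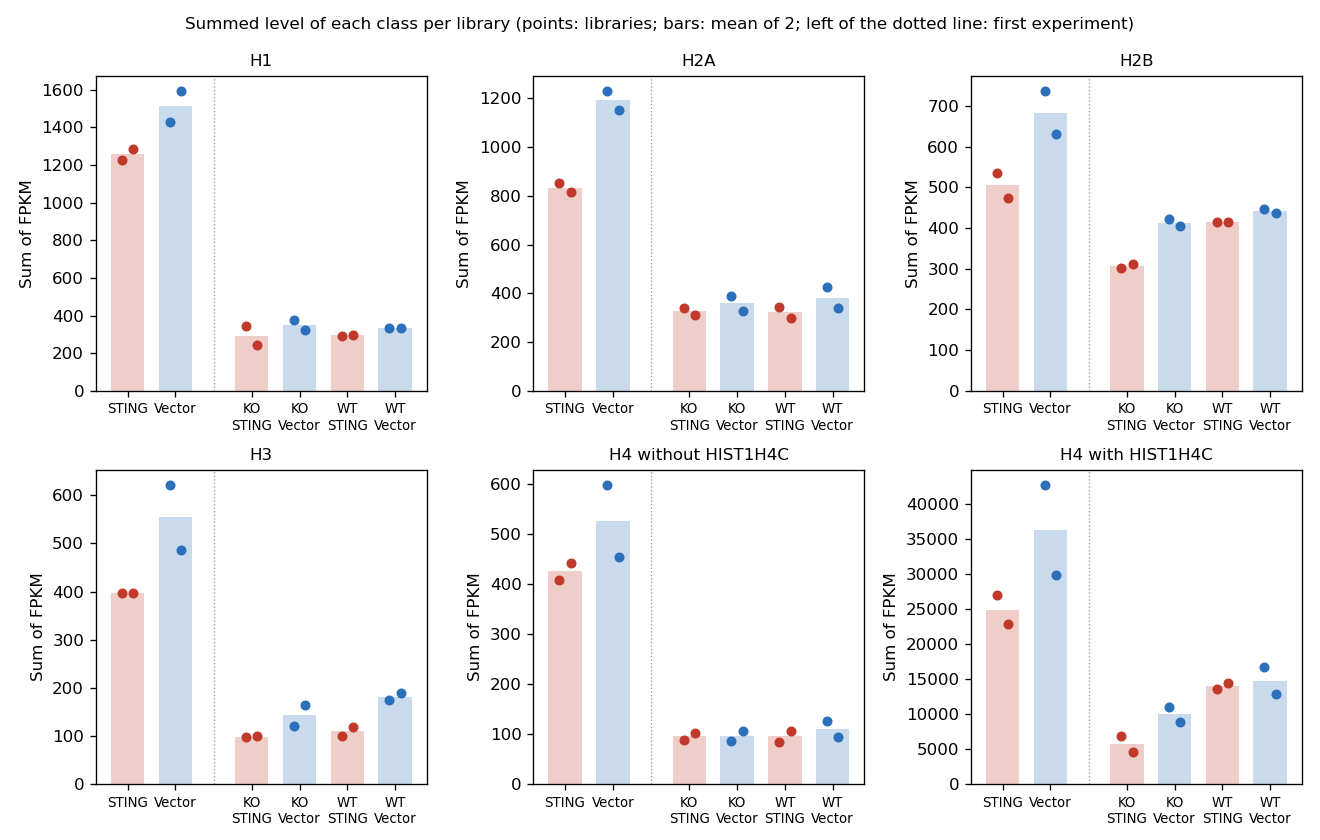
Summed FPKM of each class in each library of the 6 groups, with bars at the mean of 2 libraries. H2A stands at 851 and 816 with STING and at 1230.4 and 1154 with Vector in the first experiment, H2B stands lowest in the PERK KO STING libraries of the knockout experiment, and the last panel is set almost wholly by HIST1H4C.

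In the knockout experiment 53 of the 56 listed members were tested among 12254 genes. HIST1H2BE, HIST1H2BH and HIST1H3G stood at the lowest listed value of 1 in all 8 libraries. Falls to that floor are understated. With STING in PERK KO cells, 0 members passed in either direction, where 0.00816% of all genes, TMEM173 alone, rose and 0% fell. At an unadjusted p of 0.05, 8 members (15.1%) were lower and 1 (1.89%) was higher, against 6.64% and 1.06% of all genes. Both STING libraries lay below both Vector libraries for 18 members (34.0%) against 21.9% of all genes, and above for 4 (7.55%) against 5.66%. The median member changed by -0.25 on the log2 scale, against -0.11 for all genes. By class the medians were -0.22 for H1, -0.29 for H2A, -0.28 for H2B, -0.41 for H3 and 0 for H4. The H4 median is that of HIST1H4I, which stood at the floor in every PERK KO library. At a mean of at least 5 FPKM the median was -0.34 for members and -0.19 for all genes.

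The lowest adjusted p of a member in PERK KO cells was that of HIST1H2BF. It had 9.63 and 6.67 FPKM in PERK KO STING libraries, against 29.02 and 20.3 FPKM in PERK KO Vector libraries (log2 change -1.49, SE 0.27; limma adjusted p = 0.380). HIST1H3F, with 4.98 and 2.30 FPKM with STING and 10.3 and 9.17 FPKM with Vector, had the largest H3 change (-1.27; limma adjusted p = 0.461). HIST1H4C had 6772 and 4475 FPKM with STING and 11002.5 and 8797 FPKM with Vector (log2 change -0.84; limma adjusted p = 0.515). The groups of these 3 genes did not overlap. HIST1H4B had the largest H4 change, with 2.83 and 1.96 FPKM with STING and 7.53 and 4.27 FPKM with Vector (log2 change -0.99; limma adjusted p = 0.662). HIST1H2AC, which fell in the first experiment, had 43.3 and 43.2 FPKM against 40.6 and 52.4 FPKM here, and the groups overlapped. HIST1H2BC, which also fell there, was higher in both PERK KO STING libraries, at 46.5 and 45.1 FPKM against 42.9 and 34.5 FPKM (log2 change 0.24; limma adjusted p = 0.882). HIST3H2A had 148 and 135 FPKM in PERK KO STING libraries, against 120.2 and 88.3 FPKM in PERK KO Vector libraries, and did not pass (log2 change 0.45; limma adjusted p = 0.742).

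In WT cells 0 members passed in either direction with STING, where 0.00816% of all genes rose, again TMEM173 alone, and 0% fell. At an unadjusted p of 0.05, 10 members (18.9%) were lower and 2 (3.77%) were higher, against 12.4% and 0.441% of all genes. Both STING libraries lay below both Vector libraries for 18 members (34.0%), fewer than the 52.3% of all genes, and above for 4 (7.55%) against 3.31%. The median member changed by -0.06 and the median of all genes by -0.27. By class the medians were -0.12 for H1, -0.39 for H2A, 0 for H2B, -0.20 for H3 and 0 for H4, so H2A alone lay below the median of all genes. Both medians of 0 are set by genes at the lowest listed value in every WT library. These are HIST1H2BM for H2B, and HIST1H4F and HIST1H4G for H4, so the order of the classes partly reflects the floor. At a mean of at least 5 FPKM the median was -0.21 for members and -0.37 for all genes. The median of all genes was 0.05 after median-of-ratios scaling, and that of the members was 0.19.

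The lowest adjusted p of a member in WT cells was shared by several genes. HIST1H2BL had 11.1 and 12.9 FPKM in WT STING libraries, against 25.9 and 25.4 FPKM in WT Vector libraries (log2 change -1.04, SE 0.21; limma adjusted p = 0.384). HIST4H4 had the largest change, with 4.00 and 3.57 FPKM with STING and 15.5 and 8.18 FPKM with Vector (log2 change -1.36; limma adjusted p = 0.384). HIST1H3B had 28.95 and 46.2 FPKM against 62.0 and 88.0 FPKM (log2 change -0.99; limma adjusted p = 0.384). The libraries of these 3 genes did not overlap between groups. The largest H3 change was that of HIST1H3E, near the floor, with 2.15 and 1.92 FPKM with STING and 4.80 and 5.66 FPKM with Vector (log2 change -1.04; limma adjusted p = 0.384). HIST1H4C, by contrast, had 13535 and 14358.5 FPKM with STING and 16627 and 12789.9 FPKM with Vector, and its groups overlapped (log2 change -0.06; limma adjusted p = 0.954).

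**Figure D3:**
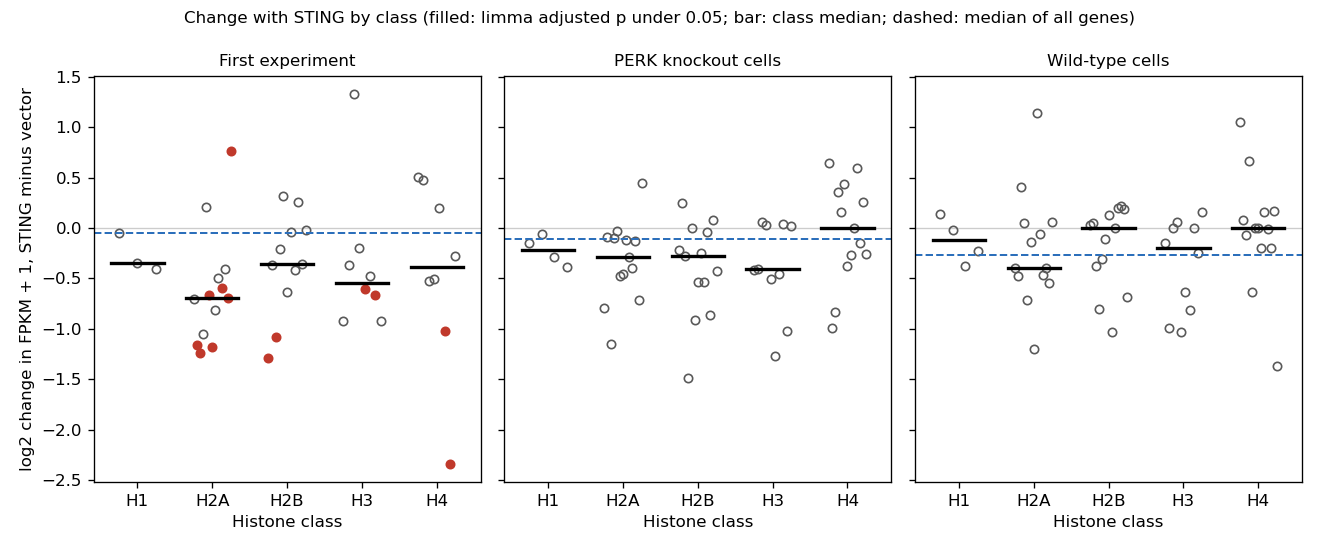
Change of each tested member with STING (vertical axis, log2 of FPKM + 1, STING minus vector) by class, in the first experiment, in PERK KO cells and in WT cells. Filled points passed limma's adjusted p of 0.05, black bars are class medians and dashed lines the median of all genes; 13 points are filled in the first experiment and 0 in the other panels.

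A test of the difference between the genotypes asks whether STING moved a member differently in PERK KO than in WT cells. It found 0 of 53 members past the threshold in limma, as for all genes (0% in each direction). At an unadjusted p of 0.05, 1 member (1.89%) was higher and 3 (5.66%) were lower, against 3.04% and 0.832% of all genes. The member with the lowest p was HIST1H2BK. It had 124.0 and 134 FPKM in PERK KO STING libraries, against 196 and 179 FPKM in PERK KO Vector libraries, whereas in WT cells it had 243 and 224 FPKM with STING and 223 and 205 FPKM with Vector. The STING effect was 0.66 lower in PERK KO than in WT cells on the log2 scale (SE 0.23; limma adjusted p = 0.966). HIST1H2AD differed most in size, by -1.56, and HIST1H2BO by -1.07. In the other direction, the effect on HIST4H4 was 1.11 higher in PERK KO cells (SE 0.50), the most of any member. The effect on HIST1H2BL was 0.79 higher. The effect on HIST1H4C was 0.77 lower in PERK KO cells (SE 0.36). All of these had a limma adjusted p of 0.966.

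In cells with the empty plasmid, PERK KO against WT, 0 members passed, against 0.0326% of all genes that were higher and 0.0163% that were lower. At an unadjusted p of 0.05, 2 members (3.77%) were higher and 5 (9.43%) were lower, against 4.38% and 7.99% of all genes. Libraries lay apart, with PERK KO lower, for 13 members (24.5%) against 25.8% of all genes, and with PERK KO higher for 4 (7.55%) against 12.5%. The shares of the members are thus near those of all genes. HIST1H4C had 11002.5 and 8797 FPKM in PERK KO Vector libraries, against 16627 and 12789.9 FPKM in WT Vector libraries (log2 change -0.57; limma adjusted p = 0.425). With quantile normalization it was the 1 member that passed (log2 change -0.89; limma adjusted p = 0.0479). HIST1H2BL had 13.9 and 17.6 FPKM in PERK KO Vector libraries, against 25.9 and 25.4 FPKM in WT Vector libraries, and had the lowest adjusted p as deposited (log2 change -0.68; limma adjusted p = 0.279). HIST1H2BN had the largest H2B change, -0.85, and HIST1H3E the largest H3 change, -1.07. HIST1H4J had the largest change (-1.40), with 10.1 and 1.43 FPKM in PERK KO Vector libraries and 24.4 and 6.37 FPKM in WT Vector libraries, and its groups overlapped.

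The 3 STING comparisons share no library, so their directions can be set side by side. Of 42 members tested in both tables, 8 (19.0%) had both STING libraries below both Vector libraries in all 3 comparisons, against 7.63% of 8808 genes. Such separation was more frequent among higher genes. In WT cells it held for 4277 of 6340 genes with a mean of at least 5 FPKM, against 6414 of all 12254. The 7.63% is not matched for level, and no matched share is given. The 8 are HIST1H1D, HIST1H2AM, HIST1H2BD, HIST1H2BF, HIST1H3B, HIST1H3F, HIST1H3H and HIST2H2AC, which come from the H1, H2A, H2B and H3 classes and include no H4 gene. Among them HIST1H2AM, HIST1H2BF, HIST1H3F and HIST2H2AC passed as lower in the first experiment. The other members that passed as lower there are not among the 8. HIST1H2BF, for 1, changed by -1.08 in the first experiment, -1.49 in PERK KO cells and -0.80 in WT cells. HIST2H2AC changed by -0.70, -0.72 and -0.54 in the same order. In the other direction HIST1H4A was the 1 member (2.38%) with both STING libraries above Vector in all 3, against 0.329% of genes. It had 5.17 and 5.37 FPKM in PERK KO STING libraries, against 2.29 and 3.89 FPKM in PERK KO Vector libraries (log2 change 0.64; limma adjusted p = 0.641). In WT cells it had 8.23 and 8.82 FPKM with STING and 2.95 and 4.34 FPKM with Vector (log2 change 1.05; limma adjusted p = 0.384).

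**Figure D4:**
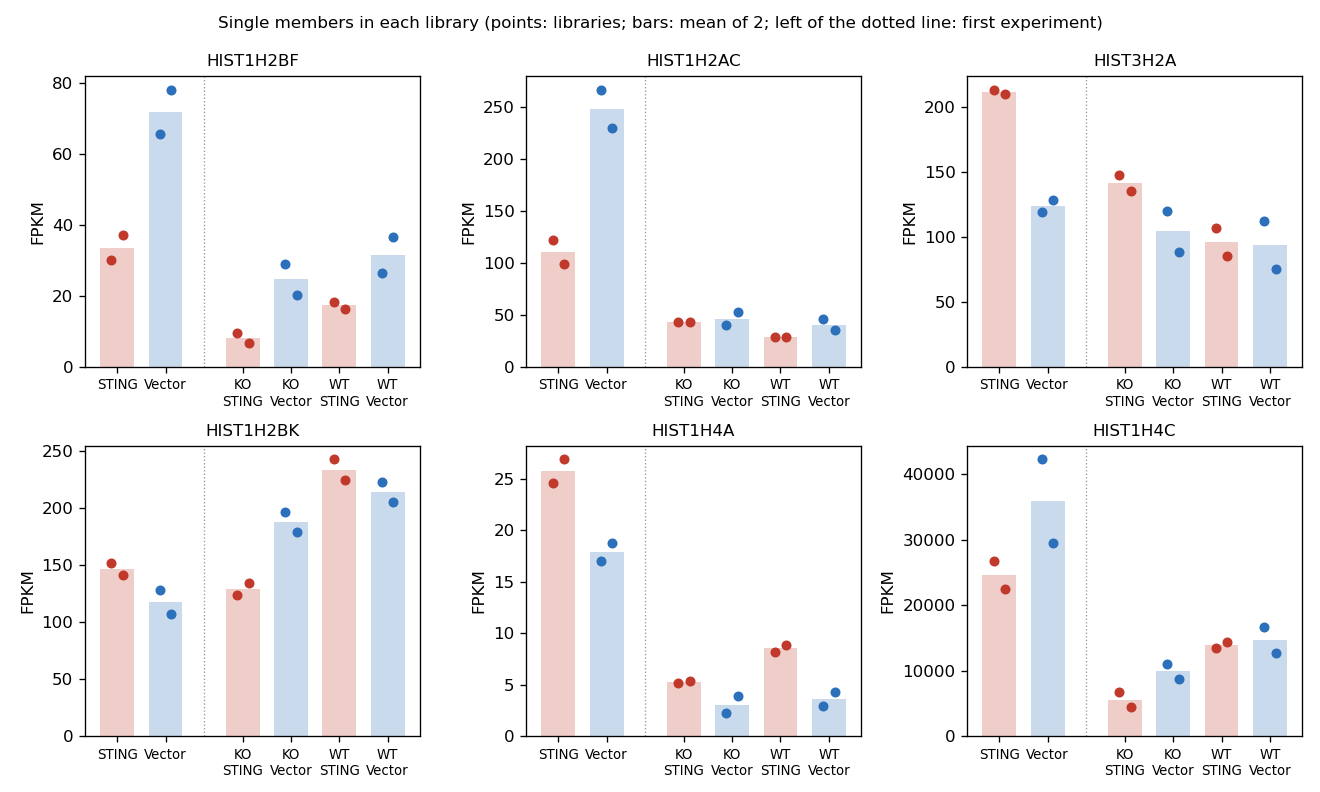
FPKM of 6 members in each library of the 6 groups, with bars at the mean of 2 libraries. HIST1H2BF is lower and HIST1H4A higher with STING in each pair of groups, HIST3H2A is higher in the first experiment, and HIST1H2BK lies at 124.0 and 134 in PERK KO STING libraries, below the other 3 groups of its experiment.

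Many H2A and H2B genes lie head to head and share the sequence between them. Among the matched windows 11 such pairs were found, in which the windows of the 2 genes overlap by 253 to 293 of 300 bases on opposite strands, and 8 pairs had both genes tested in the first experiment. Both genes were lower with STING in 6 of the 8 pairs, and both passed in 2 of them. HIST1H2AC and HIST1H2BC, whose windows share 255 bases, changed by -1.16 and -1.29. HIST1H2AD and HIST1H2BF, whose windows share 278 bases, changed by -1.23 and -1.08. In HIST3H2A and HIST3H2BB, by contrast, the H2A gene rose by 0.77 while the H2B gene stood at 13.1 and 15.6 FPKM with STING and 18.4 and 11.4 FPKM with Vector, a change of -0.02. Of 9 pairs tested in the knockout experiment, both genes were lower in 5 in PERK KO cells and in 2 in WT cells. Since most members were lower in the first experiment, a shared sign within a pair says little about the pair.

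**Figure D5:**
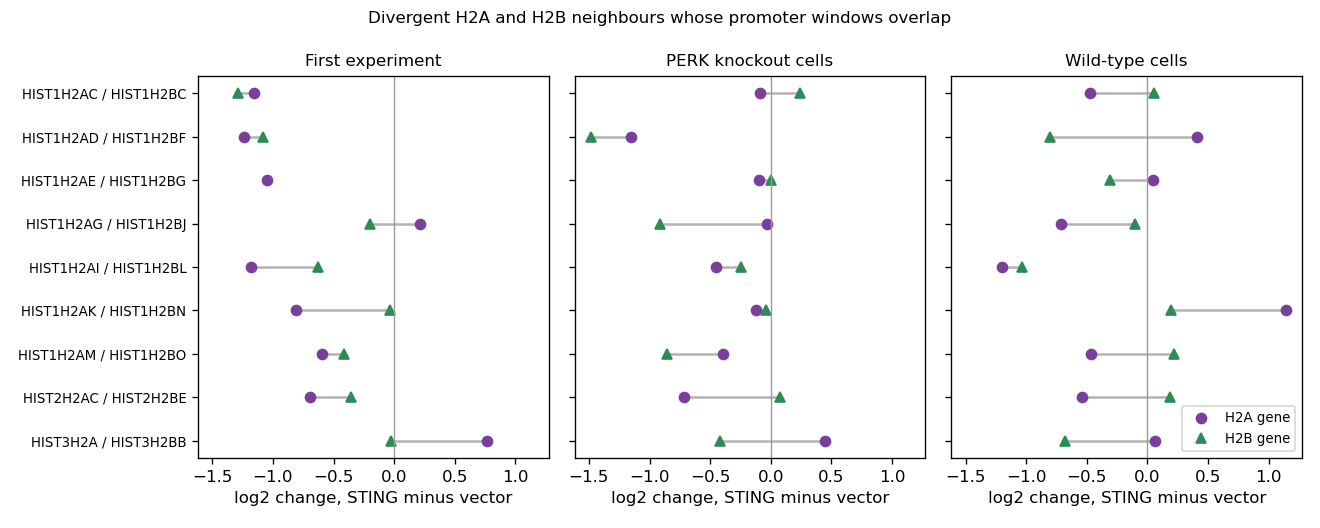
Change with STING of each H2A gene (circle) and of its divergent H2B neighbour (triangle), on the log2 scale of FPKM + 1, in the first experiment, in PERK KO cells and in WT cells. HIST1H2AC with HIST1H2BC and HIST1H2AD with HIST1H2BF lie together at the left in the first experiment, HIST3H2A lies apart from HIST3H2BB, and HIST1H2BG, which was not tested there, has no triangle.

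Among tested H2A and H2B members with a matched window, the 15 with the octamer had a median change of -0.59 in the first experiment, with 6 lower and 0 higher past the threshold. The 7 without it had a median of -0.37, with 1 lower and 1 higher. These counts are a description.

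The annotation gives 11 members a transcript that runs at least 100 bases past the stem-loop and has the polyadenylation signal AATAAA in its last 40 bases, and 7 of them were tested in the first experiment. HIST1H2AC, HIST1H3H, HIST1H4E and HIST1H4H are among them, and HIST1H4C is not, although it had the highest level in these poly(A)-primed libraries. The 7 had a median level of 99.9 FPKM and the 36 other tested members 32.8 FPKM. The others are not known to lack such a transcript. HIST3H2BB and HIST4H4 run 1917 and 1510 bases past the stem-loop, without AATAAA in the last 40 bases. Only 24 of the 73 members have the stem-loop in an annotated transcript, and the rest could not qualify. With STING the 7 changed by a median of -0.36, from -1.16 to 0.25, and the others by a median of -0.50, from -2.34 to 1.33, so both ranges overlap widely. In PERK KO cells the medians were -0.06 for 6 such members and -0.28 for the 47 others, and in WT cells -0.55 and -0.01. In WT cells the lowest value of the 6 was -0.82 and the highest 0.19, and the 47 others ran from -1.365 to 1.14.

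Genes that process histone mRNA or act beside the histones were described from lists. Over all tested genes of the first experiment 2.51% rose and 9.29% fell, and the median change was -0.05. Of 24 tested genes of histone mRNA processing and control, 0 rose and 1 fell in the first experiment, and their median change was 0.22. The 1 that fell was LSM10, a protein of the U7 particle that cuts histone mRNA, with 261 and 248 FPKM in STING libraries, against 397 and 403 FPKM in Vector libraries (log2 change -0.65; limma adjusted p = 0.00721). SLBP, named outside the rule, stood at 36.7 and 38.4 FPKM with STING and 35.7 and 39.8 FPKM with Vector, and the groups overlapped. Of 11 tested replication-independent or dispersed histone genes, whose mRNAs mostly carry poly(A) tails, 0 rose and 1 fell. It was H2AFX, which codes for the H2A variant marked at DNA breaks and gives both tailed and tailless mRNA, with 166 and 176 FPKM with STING and 218 and 251 FPKM with Vector (log2 change -0.45; limma adjusted p = 0.0467). The median of that list was -0.11. In neither list did a larger share fall than among all genes.

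Of 17 tested histone chaperones and acetyltransferases, 2 rose and 0 fell in the first experiment, where 2.51% of all genes rose and 9.29% fell. NASP, which carries H3 and H4 and H1, had 16.3 and 13.5 FPKM in STING libraries, against 3.87 and 5.79 FPKM in Vector libraries (log2 change 1.46; limma adjusted p = 0.00856). SSRP1, a subunit of the chaperone FACT, had 15.5 and 16.6 FPKM with STING and 5.58 and 7.12 FPKM with Vector (log2 change 1.22; limma adjusted p = 0.00955). Of 21 S phase genes, 3 rose and 0 fell, namely MCM6, MCM7 and UHRF1. The list's median was 0.36, against -0.05 for all genes. MCM7, part of the replicative helicase, had 76.02 and 72.1 FPKM with STING and 48.1 and 46.3 FPKM with Vector (log2 change 0.64; limma adjusted p = 0.0212). In the knockout experiment 0 genes of the 4 lists passed in any of the 4 contrasts in limma, and the medians with STING lay below 0. The S phase median was -0.10 in PERK KO cells and -0.48 in WT cells, where the medians of all genes were -0.11 and -0.27. The chaperone median was -0.08 in PERK KO and -0.29 in WT cells, the processing median -0.19 and -0.36, and that of the replication-independent histones -0.28 and -0.46. NASP, which rose in the first experiment, had 15.8 and 20.97 FPKM in PERK KO STING libraries, against 21.9 and 27.5 FPKM in PERK KO Vector libraries (log2 change -0.41; limma adjusted p = 0.750). In WT cells it had 21.3 and 23.3 FPKM with STING and 31.1 and 45.4 FPKM with Vector (log2 change -0.73; limma adjusted p = 0.384).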

How the data were processed

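Both tables hold FPKM per gene symbol as the authors deposited them, for 4 libraries of the first experiment and 8 of the knockout experiment; the second names no unit and was read as FPKM. Per the submitters' processing notes, TopHat2 2.1.1, Cufflinks 2.2.1 and genome build hg19 were used. The first table reaches down to 0 and the second to a lowest value of 1. No counts were given, so the depth of a library is unknown and no counting interval can be had. The protocol does not mark strand, and reads of near-identical or overlapping members may be split between them.

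Genes with a mean of at least 1 FPKM that varied were tested on the log2(FPKM + 1) scale in R 4.3.3 with limma 3.58.1, using a trended, robust variance and Benjamini-Hochberg adjustment over all tested genes of a table (threshold 0.05, two-sided). The 4 groups of the knockout table shared 1 estimate of spread. The script was tested on simulated data. Exact permutation of 2 against 2 libraries cannot go below p = 0.333. The members and lists were chosen with earlier results of these data known. Members were named if they passed in any contrast, were among the 3 highest of their class in a table, or changed most in their class. Alternatives were other pseudocounts, filters, scalings and variance models, a replicate block, and leaving out each library.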

Additional observations from a re-analysis of the deposited data

Results flagged for a closer look

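HIST1H2BK, an H2B gene, lay lower with STING in both PERK KO libraries and slightly higher in both WT libraries. It had 124.0 and 134 FPKM in PERK KO STING libraries, below 196 and 179 FPKM in PERK KO Vector libraries, whereas in WT cells it had 243 and 224 FPKM with STING, above 223 and 205 FPKM with Vector. The effect was -0.53 on the log2 scale in PERK KO cells and 0.13 in WT cells (SE 0.16 each), so the WT value is smaller than its error. The difference of the effects was -0.66 on the log2 scale (SE 0.23), and limma's test of it did not pass after adjustment over all genes (adjusted p = 0.966). STING mRNA was lower in the PERK KO STING libraries, at 10512 and 7338 FPKM, than in the WT STING libraries, at 41812 and 40660.1 FPKM, and its part in the difference was not tested.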

How the results depend on the processing

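Libraries brought to equal sums of FPKM were an alternative chosen after seeing the data. In the first experiment, 1 member was higher and 12 were lower as deposited. Quantile normalization gave 4 higher and 7 lower, equal sums 4 and 7, and plain eBayes 0 and 0. Leaving out a library gave 0 to 2 higher and 0 to 11 lower. The median change of the members was -0.28 after quantile normalization and -0.17 with equal sums, which moved the median of all genes to 0.21, and ranged from -0.56 to -0.33 without 1 library. In WT cells it was -0.21 at a mean of at least 5 FPKM, 0.19 with median-of-ratios scaling and 0.0697 after quantile normalization, and -0.20 to -0.0650 without 1 library. In PERK KO cells it was -0.0921 with median-of-ratios scaling and -0.11 after quantile normalization. The median difference of effects was -0.0564 at a pseudocount of 5, -0.24 with median-of-ratios scaling, -0.20 after quantile normalization, -0.0644 with equal sums, and -0.15 to 0.00447 without 1 library. For PERK KO against WT with Vector, it was -0.24 at a mean of at least 5 FPKM, 0.0604 with median-of-ratios scaling, 0 after quantile normalization, -0.18 with equal sums, and -0.12 to -0.0129 without 1 library, and quantile normalization called 1 member lower, HIST1H4C. The cause of these shifts was not tested.

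Deviations of same-numbered libraries correlated at 0.0741 in the first experiment. There the submitters' library names share a letter, A or B, between 1 STING and 1 Vector library. What the letter stands for is not given, so these libraries may be paired, and the main test used no pairing. In the knockout experiment the 6 correlations ran from 0.0418 to 0.528 and 5 were over 0.1, so same-numbered libraries partly deviated together, but the labels name nothing they share and no block was used. With the replicate number as a block, 2 members were higher and 19 lower in the first experiment, and 0 passed in the 4 contrasts of the knockout experiment. The shares of all genes called under this and the other alternatives are not given here. From the member counts alone, a moved count of members cannot be told apart from a moved count over the whole list of genes. Where a library is left out, its group's other library is assumed to vary like the rest.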
